A study of Rattus norvegicus with 10 samples.

Results

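Transcripts of 72 genes for chromatin remodellers and histone-modifying enzymes were examined in the right side of the rat brain shortly after an odor was inhaled. A gene was taken when its platform symbol started with Chd, Kmt, Kdm, Setd, Hdac or Arid followed by a digit, or with Smarc, and Ash1l was added. These genes are 72 of the 14217 genes measured, and they were covered by 145 of the 31042 probe sets tested. The brightest probe set, by its mean over the 10 rats, stood for a gene, and the other probe sets were set beside it for sign. The grouping was proposed after Ash1l and Chd4 had been seen among the lower genes of the same comparison, so the differences below are descriptions. In the NCBI table of assembly GRCr8, 87 protein-coding genes meet the symbol rule, and the 15 without a probe set of their own here include Chd5, Hdac9, Kdm4a, Kdm6a and Setd7.

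Expression was measured on 10 Affymetrix arrays with biotin-labelled RNA, 1 array for each of 10 male Wistar rats aged 7 weeks. Control rats (n = 5) inhaled vapor of distilled water for 5 min, and DMHF rats (n = 5) inhaled vapor of DMHF, a dimethyl hydroxy furanone also called furaneol and known as an aroma compound of strawberry, for the same time. The liquid behind the vapor was 5 mL in each case. All rats then waited 10 min, and inhalation came before the dark period. The titles number the rats of a group as biological replicates. The right brain was frozen whole, so regions and cell types are mixed, and fewer cells of a type and less RNA per cell cannot be told apart.

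DNA in the nucleus is wound around histones, and the proteins named here set how open that packing is. Remodellers of the Chd and Smarc families burn ATP to slide, space or evict nucleosomes, and Arid proteins give several of these complexes their DNA-binding subunits. Many Kmt and Setd proteins, and Ash1l, add methyl groups to lysines of histone tails, many Kdm proteins remove them, and Hdac proteins remove acetyl groups. In the brain, mutations of Chd, Arid, Kmt, Kdm and Setd genes are a known cause of neurodevelopmental disorders, and deacetylation by Hdac proteins limits activity-dependent transcription in neurons.

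On the deposited log2 scale the median of an array was 7.24, and 65 of the 72 genes had a mean above it. Differences between arrays were very small on this scale, with a median SD of 2.2 millionths of a log2 unit over all probe sets. Differences are therefore given in millionths of a log2 unit from the control mean and in units of that probe set's own SD within groups (called SD below). They cannot be read as fold changes of RNA, and levels of different probe sets are not compared. With 5 arrays a group, their number limits how precise any value is. All 9 neuronal markers (such as Snap25 and Syt1), all 7 astrocyte markers, all 6 microglial markers and the 5 measured oligodendrocyte markers lay above the median probe set.

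For 4 of the members discussed below the 250 bases before the RefSeq start of the gene are shown, as background on the kind of promoter these genes have. Kdm2a and Hdac5 had a higher mean in DMHF with their brightest probe set, Arid4a had a lower mean with both of its probe sets, and the probe sets of Chd4 went both ways. The windows lie in RefSeq assembly GRCr8 at chr1:211110216-211110465 (minus strand) for Kdm2a, chr10:87688055-87688304 (minus strand) for Hdac5, chr4:159584568-159584817 (plus strand) for Chd4 and chr6:95258179-95258428 (plus strand) for Arid4a. Capitals mark every match, on either strand, to the CCAAT box (CCAAT), the GC box (GGGCGG), the cAMP response motif (TGACGT), the E box (CACGTG) and the TATA box (TATAAA), and no matches overlap in these 4 windows.
Kdm2a: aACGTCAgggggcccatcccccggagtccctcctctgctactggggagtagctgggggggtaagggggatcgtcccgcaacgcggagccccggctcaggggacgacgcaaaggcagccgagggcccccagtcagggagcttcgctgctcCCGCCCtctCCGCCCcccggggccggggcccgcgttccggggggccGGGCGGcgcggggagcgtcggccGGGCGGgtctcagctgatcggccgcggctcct
Hdac5: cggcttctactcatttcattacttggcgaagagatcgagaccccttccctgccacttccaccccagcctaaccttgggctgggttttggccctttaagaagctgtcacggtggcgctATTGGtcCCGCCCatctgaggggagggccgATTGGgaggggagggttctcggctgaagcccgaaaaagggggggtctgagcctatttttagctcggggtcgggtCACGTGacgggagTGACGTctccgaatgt
Chd4: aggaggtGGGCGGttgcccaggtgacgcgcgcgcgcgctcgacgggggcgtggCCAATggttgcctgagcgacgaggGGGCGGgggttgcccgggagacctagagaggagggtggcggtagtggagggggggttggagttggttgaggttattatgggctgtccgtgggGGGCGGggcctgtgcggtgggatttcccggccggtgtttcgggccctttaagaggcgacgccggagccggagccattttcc
Arid4a: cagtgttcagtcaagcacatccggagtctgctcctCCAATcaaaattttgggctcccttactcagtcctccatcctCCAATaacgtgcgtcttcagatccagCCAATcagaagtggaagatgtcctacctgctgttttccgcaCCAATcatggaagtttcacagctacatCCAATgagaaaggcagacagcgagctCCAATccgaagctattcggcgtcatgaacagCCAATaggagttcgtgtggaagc

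Kdm2a and Chd4 have the GC-rich promoters common among chromatin genes, with 29 and 25 CpG pairs and 4 and 3 GC boxes, while Arid4a has 9 CpG pairs, 0 GC boxes and 7 CCAAT boxes. The Hdac5 window holds 2 CCAAT boxes, a GC box, an E box and a cAMP response motif. RefSeq gave a window for 62 of the 72 genes, with a median of 18.5 CpG pairs against 15 for 11734 genes of the array. A GC box was present in 46 of the 62 windows (74.2%, against 54.2% of the array genes' windows and 32.4% of all 27457 windows), and a TATA box in 2 (3.23%, against 8.07% and 13.1%). CCAAT boxes were in 37.1% of the members' windows against 35.1% and 34.3%, the cAMP response motif in 9.68% against 9.78% and 7.25%, and the E box in 4.84% against 7.82% and 5.79%. A match describes the letters of a window and does not show that a factor binds there.

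None of the 72 genes passed the test between DMHF and control. The limma fit over all probe sets called 0 of 145 member probe sets at an adjusted p under 0.05, where it called 0.0% of all probe sets, and the smallest adjusted p of a gene's brightest probe set was 0.787. Of the 72 genes, 40 had a lower and 32 a higher mean in DMHF, which is 55.6% lower against 47.0% of all genes. The median difference of the members was -0.11 within-group SD, against 0.0477 for all genes, and 66 of the 72 lay within 1 SD of 0. The 6 outside were Smarca5 (-3.13), Kdm2a (1.77), Setd5 (1.52), Setd3 (-1.07), Smarcc2 (1.04) and Setd1b (-1.01). At an unadjusted p under 0.05 by limma, 2 members were higher (2.98% of all genes were) and 1 lower (1.83%). The 2 groups did not overlap for 1 member, lower in DMHF (0.345% of all genes), and for 0 members higher (0.549%). Without control replicate 5 the members' median was 0.0413, and without DMHF replicate 2 it was 0.0324, so the sign of the shift rests on single rats.

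**Figure D1:**
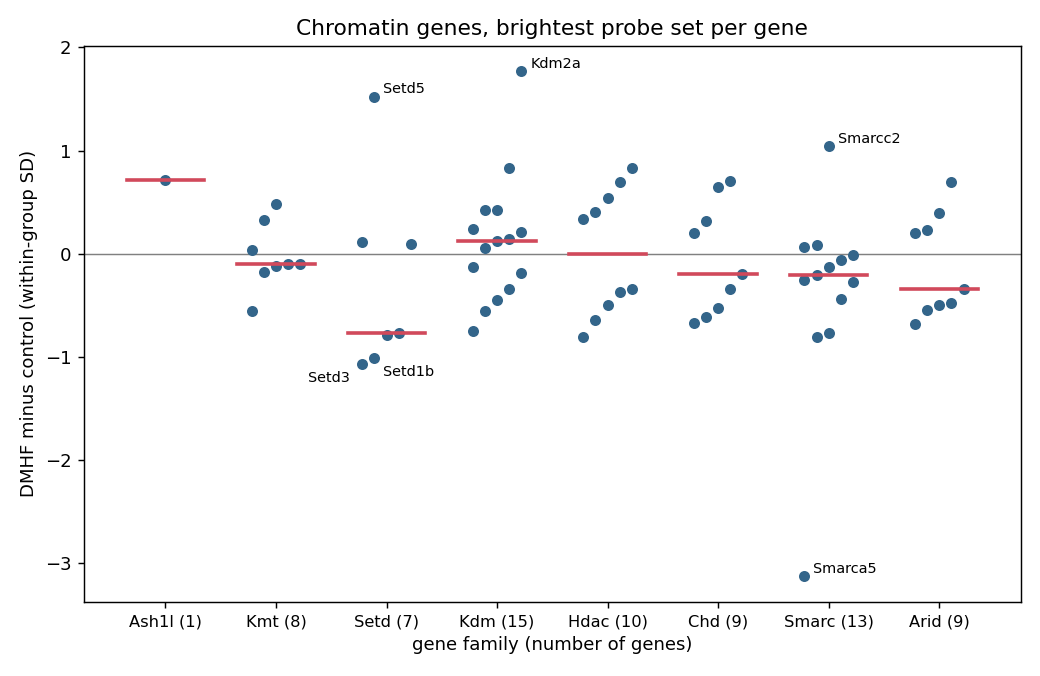
Each point is a gene, with the family on the x axis and the difference DMHF minus control in units of the within-group SD on the y axis (n = 5 and 5 rats, brightest probe set), and red bars are family medians. Of the 72 genes 66 lie within 1 SD of 0, and Smarca5 at -3.13, Kdm2a at 1.77 and Setd5 at 1.52 stand farthest out.

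By family, the Smarc genes stood lower most often, 10 of 13 with a median of -0.207 SD. The Setd genes had the median farthest below 0 (-0.773 SD, 4 of 7 lower), and the Kmt genes stood lower in 5 of 8 (median -0.101 SD). Lower means were found for 5 of 9 Chd genes (median -0.2 SD), 5 of 9 Arid genes (median -0.342 SD), 5 of 10 Hdac genes (median -0.00135 SD) and 6 of 15 Kdm genes (median 0.122 SD). Differences between families were not tested.

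The differences were small beside those between rats of a group. The control rat numbered 5 lay above the control mean for 51 of the 72 genes and the control rat numbered 3 below it for 49, while 49 of the genes lay below it in the DMHF rat numbered 2. Over all genes these rats stood near the middle, with 49.1%, 53.1% and 49.8% of genes below the control mean. Among the 8 Kmt genes, control rat 5 was above the control mean for all 8, with a mean of 1.52 SD, and control rat 3 was below it for 7, with a mean of -0.944 SD. Among the 15 Kdm genes, control rat 5 was above the control mean for all but 1. The further 174 chromatin genes described below leaned the same way in these rats, with 37.9%, 56.3% and 61.5% of them below the control mean. The 73 less bright member probe sets did so in part. Control rat 3 lay below the control mean for 43 of them and DMHF rat 2 for 49. Control rat 5, however, lay below it for 42 of the 73. Control rat 1 lay above it for 52 of the 73, but below it for 45 of the 72 brightest.

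**Figure D2:**
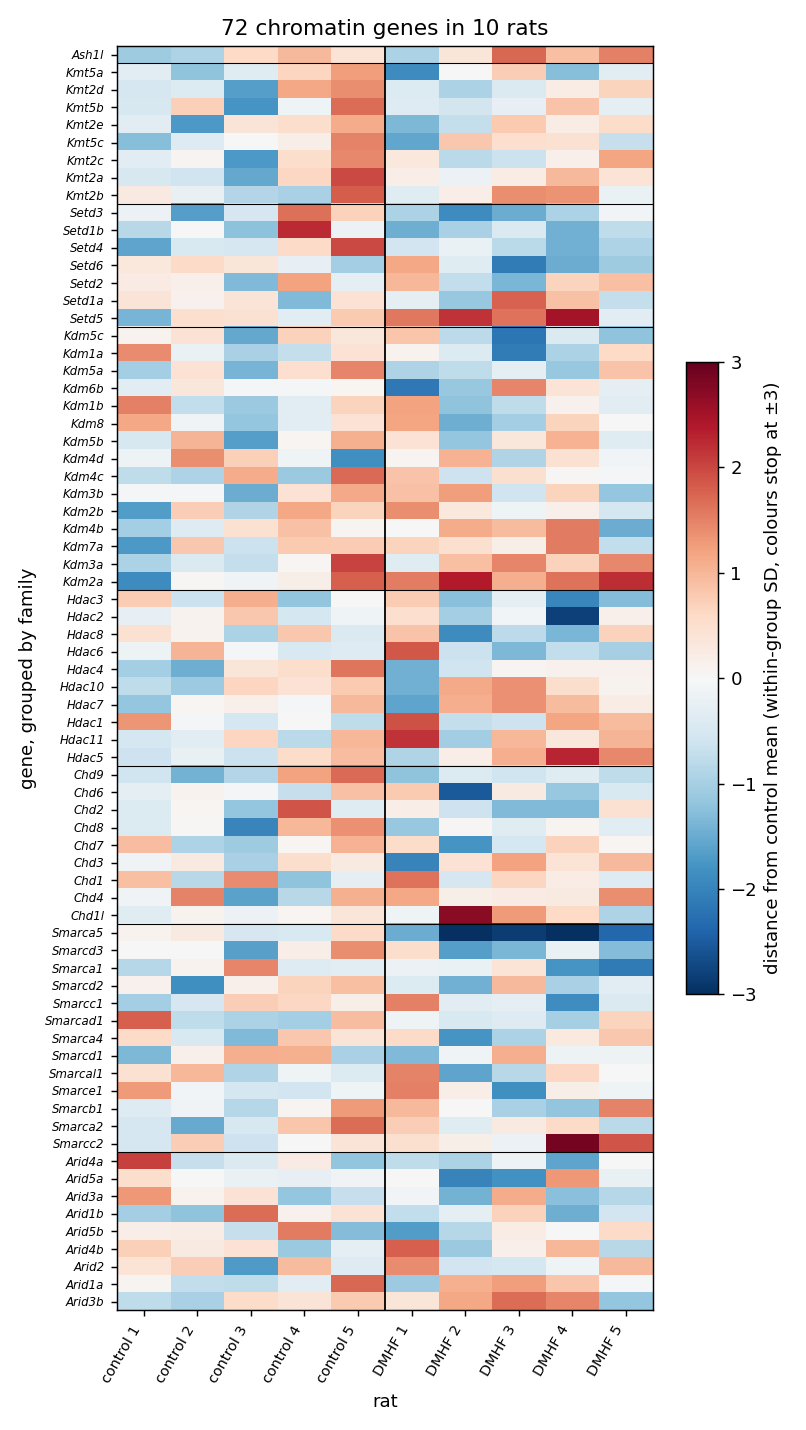
Rows are the 72 genes grouped by family, columns the 10 rats, and colour gives the distance from the control mean in within-group SD, with colours stopping at 3 SD on either side. The Kmt rows of control 5 are all red, and the Smarca5 row is blue in each DMHF rat.

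Among the Kmt, Setd and Ash1l genes, many of them for histone methyltransferases, no member had separate groups. Setd5, a SET-domain protein whose loss impairs neurodevelopment, stood at -2.08, 0.757, 0.67, -0.525 and 1.18 millionths from the control mean in control rats 1 to 5 and at 2.36, 3.24, 2.46, 3.76 and -0.492 in DMHF rats 1 to 5. Of the DMHF rats 4 lay above all controls, and the fifth lay among them. The difference was 2.27 millionths (SE 0.924), which is 1.52 SD. The adjusted p by limma was 0.876. Its less bright probe sets had the other sign, at -0.584 and -28.9 millionths, or -0.061 and -1.24 SD.

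Setd1b, a catalytic subunit of the COMPASS complexes that methylate histone H3 at promoters, stood at -0.902, -0.012, -1.32, 2.42 and -0.188 in control rats 1 to 5 and at -1.59, -1.06, -0.459, -1.55 and -0.817 in the DMHF rats. Control rat 4 was high and the groups overlapped. The mean difference was -1.1 millionths (SE 0.685), or -1.01 SD, and without that rat it was the smallest in size of those with 1 array left out, -0.492. Setd4 stood at -1.63, -0.472, -0.519, 0.582 and 2.04 in controls and at -0.598, -0.213, -0.827, -1.49 and -0.943 in DMHF rats. All DMHF values lay within the control range, which control rats 1 and 5 set, and the difference was -0.788 SD.

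Kmt2a and Kmt2b, the MLL-type methyltransferases of promoters and enhancers, and Kmt5a, which methylates histone H4, had the smallest p of the Kmt genes, and their differences ran from -0.554 to 0.477 SD. Kmt2a stood at -6.04, -7.66, -19.7, 8.03 and 25.3 in controls and at 2.46, -2.21, 2.73, 12.5 and 5.26 in DMHF rats, a difference of 4.14 millionths, or 0.324 SD. The 5 DMHF rats lay inside the control range, and without control replicate 3 the sign turned (-0.78). Kmt2b stood at 1.19, -0.989, -3.84, -4.24 and 7.88 in controls and at -1.6, 0.868, 6.09, 5.85 and -0.841 in DMHF rats, 0.477 SD apart. Kmt5a stood at -3.56, -13.2, -3.95, 7.09 and 13.7 in controls and at -20.6, -0.0858, 8.03, -13.9 and -3.69 in DMHF rats, -0.554 SD apart. The groups overlapped widely for both.

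Ash1l, which methylates histone H3 and keeps developmental genes active, had a higher mean in DMHF with its brightest probe set. That probe set stood at -1.06, -0.926, 0.604, 0.974 and 0.404 in control rats 1 to 5 and at -0.946, 0.364, 1.72, 0.914 and 1.5 in DMHF rats 1 to 5. The groups overlapped, 0.712 millionths or 0.711 SD apart. The lower Ash1l seen earlier in these data came from a less bright probe set, which is described with the other such probe sets below.

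Among the demethylases, Kdm2a, which removes methyl groups from histone H3 and binds unmethylated CpG DNA, had the largest difference in SD units. It stood at -1.02, 0.013, -0.06, 0.099 and 0.969 in control rats 1 to 5 and at 0.821, 1.28, 0.588, 0.876 and 1.19 in DMHF rats 1 to 5. Of the control rats 4 lay below all DMHF rats and control rat 5 lay among them. DMHF exceeded control by 0.952 millionths (SE 0.387), which is 1.77 SD. The adjusted p by limma was 0.876. One of its 2 other probe sets had the same sign (0.619 SD) and one the opposite sign (-0.352 SD).

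Kdm3a, which removes repressive methyl marks from histone H3, stood at -1.83, -0.854, -1.37, 0.132 and 3.92 in controls and at -0.708, 1.75, 2.81, 1.33 and 2.79 in DMHF rats. The highest value was that of control rat 5, and the difference was 0.829 SD. Kdm5c, an X-linked demethylase of active promoter marks whose loss causes intellectual disability, stood at 0.524, 2.35, -8.42, 3.71 and 1.83 in controls and at 4.52, -4.31, -11.8, -2.35 and -6.6 in DMHF rats. Without control rat 3, the low one, 4 DMHF rats would lie below all other controls. The difference with all rats was -0.755 SD, and its other probe sets were lower too (-0.347 and -1.28 SD). The other 12 Kdm genes lay between -0.552 SD (Kdm1a) and 0.428 SD (Kdm7a).

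**Figure D3:**
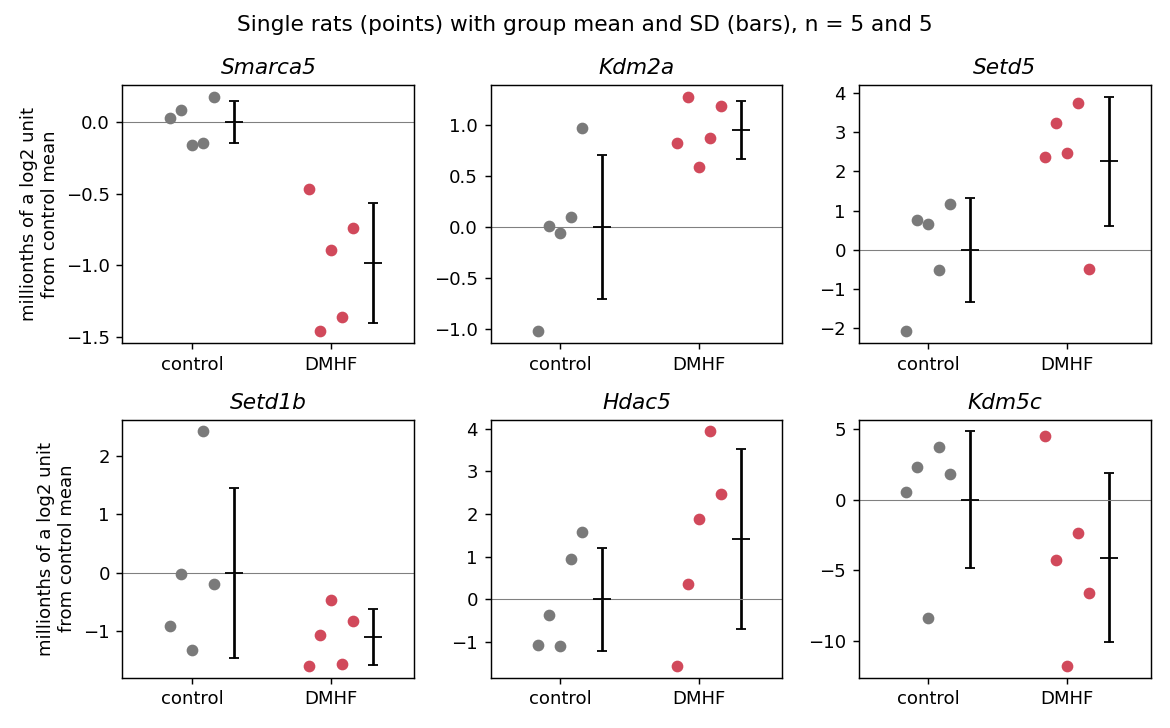
Points are single rats in millionths of a log2 unit from the control mean for 6 genes, with group means and SD as bars (n = 5 and 5). The groups are apart for Smarca5 alone among these 6, and for Kdm2a a single control rat at 0.969 lies among the DMHF rats.

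Histone deacetylases were split evenly. Hdac5, a class IIa deacetylase that leaves the nucleus upon neuronal calcium signals, stood at -1.07, -0.367, -1.09, 0.949 and 1.58 in control rats 1 to 5 and at -1.56, 0.358, 1.89, 3.94 and 2.48 in DMHF rats 1 to 5. Of the DMHF rats 3 lay above all controls and DMHF rat 1 below all of them. The difference was 1.42 millionths (SE 1.05), or 0.829 SD, and its second probe set was higher as well (1.24 SD). The other class IIa members stood at -0.342 SD (Hdac4) and 0.408 SD (Hdac7).

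Hdac2, a class I deacetylase of the NuRD, SIN3 and CoREST complexes that restrains synaptic plasticity genes, stood at -0.702, 0.284, 2.25, -1.45 and -0.383 in controls and at 1.43, -2.85, -0.256, -7.84 and 0.436 in DMHF rats. DMHF rat 4 was low, the groups overlapped, and the difference was -0.646 SD. Hdac11, the class IV deacetylase, stood at -0.265, -0.16, 0.325, -0.403 and 0.501 in controls and at 1.08, -0.526, 0.499, 0.172 and 0.514 in DMHF rats, 0.697 SD apart with overlap. Hdac1, the close relative of Hdac2, was at 0.54 SD with its brighter probe set and at 0.0749 SD with the other. The NCBI table lists 18 pseudogenes named for Hdac1, 11 for Smarce1, 2 each for Setd3 and Kmt5a and 1 each for Hdac2, Kmt5c and Smarca2. Whether RNA of such copies adds to these signals was not tested.

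Of the remodellers, Smarca5, the ISWI-type ATPase that spaces nucleosomes evenly, was the single member whose groups were apart. It stood at 0.0324, 0.0874, -0.16, -0.141 and 0.18 millionths in control rats 1 to 5 and at -0.466, -1.46, -0.894, -1.36 and -0.741 in DMHF rats 1 to 5. Each DMHF rat lay below each control rat. The difference was -0.984 millionths (SE 0.285), which is -3.13 SD, and it ranged from -1.11 to -0.865 millionths with single arrays left out. Smarca5 was singled out by its separate groups in the same arrays, so this narrow range was partly fixed beforehand and gives no support. The adjusted p by limma was 0.787. With the arrays set to a common median the difference of Smarca5 was -1.03 millionths and its groups overlapped. The control SD of 0.147 millionths was small, and the 2 other probe sets stood nearer to 0 in SD units, at -0.861 and -0.168 SD, with overlapping groups.

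Smarcd3, a BAF subunit, stood at 0.0418, 0.0508, -4.12, 0.495 and 3.53 in controls and at 1.32, -4.22, -3.5, -0.509 and -3.33 in DMHF rats, -0.805 SD apart. Smarca1, the second ISWI-type ATPase and one enriched in neurons, stood at -28.4, 3.41, 48.3, -12.8 and -10.6 in controls and at -5.98, -6.76, 13.6, -57.9 and -69.6 in DMHF rats. DMHF rats 4 and 5 were below all controls and the others among them, and the difference was -0.769 SD. The alternative ATPases of BAF complexes were close to 0, Smarca2 at 0.0802 SD and Smarca4 at -0.207 SD. Smarcad1 was lower with all 3 of its probe sets (-0.258, -0.616 and -0.167 SD).

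In the Chd family the ATPases of NuRD complexes, Chd3 and Chd4, were at 0.204 and 0.648 SD. The brightest probe set of Chd4 stood at -0.177, 2.59, -2.81, -1.45 and 1.84 in controls and at 2.01, 0.324, 0.411, 0.461 and 2.43 in DMHF rats, all of them within the control range. Chd1l, a remodeller recruited to DNA damage by poly(ADP-ribose), stood at -1.66, 0.522, -0.81, 0.272 and 1.67 in controls and at -0.55, 12.4, 5.8, 2.73 and -4.21 in DMHF rats, on both sides of the control range, and the difference was 0.707 SD (-0.269 SD with its other probe set). Chd9 stood at -4.06, -9.53, -5.87, 8.05 and 11.4 in controls and at -7.99, -2.79, -4.07, -2.4 and -5.08 in DMHF rats, -0.669 SD apart (0.275 SD with its other probe set). Control rats 4 and 5 were high there, and the 3 other controls lay in or near the DMHF range. Chd2, Chd7 and Chd8 are tied to epilepsy, CHARGE syndrome or autism in humans. Chd2, Chd6, Chd7 and Chd8 were at -0.526, -0.616, -0.2 and -0.345 SD with their brightest probe sets. Their other probe sets went both ways, at -1.87 SD for Chd2, -0.483 and 1.37 SD for Chd6, 0.214 and -0.666 SD for Chd7 and 1.02 SD for Chd8.

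Of the Arid genes, Arid3b stood at -1.31, -1.68, 0.957, 0.678 and 1.36 in controls and at 0.61, 1.99, 2.85, 2.5 and -1.99 in DMHF rats, 0.698 SD apart with overlap. Arid4a, a subunit of SIN3 corepressor complexes, stood at 17.5, -5.82, -3.7, 2 and -10 in controls and at -6.42, -8.03, -1.26, -13.4 and 0.0922 in DMHF rats. Control rat 1 was high, the difference was -0.683 SD, and without that rat it shrank to -1.42 millionths from -5.81. Arid5a, which also binds and stabilises inflammatory mRNAs, stood at 1.74, 0.042, -0.651, -0.812 and -0.322 in controls and at 0.011, -6.58, -5.96, 4.27 and -0.709 in DMHF rats, -0.548 SD apart. DMHF rats 2 and 3 were low and DMHF rat 4 was above all controls. The dimmer probe set of Arid5a went the other way, at 1.94, -1.23, -1.44, 0.499 and 0.228 in controls and at 4.91, 2.56, 3.25, 2.88 and -0.409 in DMHF rats. There 4 DMHF rats lay above all controls and the fifth among them, 1.57 SD apart, with an unadjusted p of 0.0313 and an adjusted p of 0.876 by limma. The BAF subunits Arid1a and Arid1b were at 0.397 and -0.48 SD, with 4 of 4 probe sets of Arid1a higher and 3 of 6 of Arid1b lower.

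For 18 of the 22 genes given by rat, leaving out 1 array shrank the difference in millionths by over 1.5 times or turned it, and the exceptions were Setd5, Kdm2a, Kdm3a and Smarca5. Of these exceptions, Smarca5, Kdm2a and Setd5 had the smallest p of all members by limma, so their steadiness was partly fixed beforehand. Beside the changes given above for single genes, Hdac2 went from -1.82 to -0.311 and Hdac5 from 1.42 to 0.794 without DMHF replicate 4. Chd1l went from 3.24 to 0.94 and Arid5a from -1.79 to -0.596 without DMHF replicate 2. Kmt5a went from -6.05 to -2.41 and Hdac11 from 0.347 to 0.165 without DMHF replicate 1, and Kdm5c from -4.12 to -2.18 without DMHF replicate 3. Without control replicate 5, Chd9 went from -4.47 to -1.61, Setd4 from -0.815 to -0.304 and Smarcd3 from -2.05 to -1.17. Chd4 went from 1.13 to 0.425 and Smarca1 from -25.3 to -13.3 without control replicate 3, Kmt2b from 2.07 to 1.01 without control replicate 4, Ash1l from 0.712 to 0.448 without control replicate 1, and Arid3b from 1.19 to 0.772 without control replicate 2. Quantile normalization turned the direction of Arid4a (145 millionths) and Arid3b (-41.0) and set Kdm2a, Chd1l and Smarca1 to 0.

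Which probe set stood for a gene changed the picture for several members. Of the 36 members with at least 2 probe sets, 5 were lower with all of them (Chd2, Smarca5, Arid4a, Smarcad1 and Kdm5c), 4 higher with all (Arid1a, Hdac5, Kmt2b and Hdac1) and 27 mixed. Of the 15 members with 3 probe sets, 20.0% had probe sets of one sign, against 35.8% of the 1036 genes with 3, and of the 12 with 2 probe sets 41.7%, against 57.3% of 3061. Of the 73 member probe sets that were not the brightest of their gene, 43 were lower in DMHF (58.9%, against 48.6% of such probe sets of all genes). At an unadjusted p under 0.05 by limma, 10 of these 73 were lower and 1 higher, none with an adjusted p under 0.698. Of the 6609 such probe sets of all genes 3.36% were lower and 3.25% higher at that p, and of all probe sets 2.25% and 3.23%. Of all 145 member probe sets 83 were lower in DMHF (57.2%, against 46.8% of all probe sets), and the groups were separate for 2, both lower (0.332% of all probe sets). The higher one was the dimmer probe set of Arid5a. The 10 lower ones came from 8 genes and, like that of Arid5a, were picked by their values, so they are described without a test. Ash1l and Chd4, whose lower values had led to the grouping, are among these 8 genes. Chd4 also gave 1 of the 2 probe sets with separate groups. Part of these shares was thus set by the choice of genes.

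Ash1l and Chd4 each had 2 of these 10 probe sets. The probe set of Ash1l with the smallest p stood at 9.24, 5.87, 18.8, -0.0056 and -33.9 millionths in control rats 1 to 5 and at -61.5, -47.7, -56.2, -71.9 and -33.5 in DMHF rats 1 to 5, a mean difference of -54.1 or -3.09 SD. Control rat 5 and DMHF rat 5 were almost level, and the other rats were apart. A further probe set of Ash1l stood at 271, -236, 49.4, 121 and -206 in controls and at -341, -269, -149, -194 and -264 in DMHF rats, with control rats 2 and 5 inside the DMHF range.

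The dimmest probe set of Chd4 stood at 5.89, -4.25, 1.29, 0.892 and -3.82 in controls and at -12.9, -8.4, -10.9, -7.03 and -11.8 in DMHF rats, with each DMHF rat below each control rat and a difference of -2.99 SD. The middle probe set of Chd4 stood at 8.69, -12.7, 12.4, 1.58 and -9.98 in controls and at -15.8, -14.2, -5.95, -10.4 and -17.6 in DMHF rats. There control rats 2 and 5 were low again and lay among the DMHF rats.

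Kmt2e, a reader of active promoter marks, had 5 probe sets, and its dimmest stood at 5.23, -6.38, -0.994, 4.36 and -2.22 in controls and at -9.38, -10.3, -3.35, -9.95 and -12 in DMHF rats (-2.18 SD). Its 4 brighter probe sets lay between -0.385 and 0.469 SD. For Kmt2a the third of 4 probe sets stood at 44.7, -27, 19.4, -8.1 and -29.1 in controls and at -28.8, -56.2, -36.6, -46 and -71.6 in DMHF rats (-1.89 SD). The dimmer probe set of Chd2 stood at 39.2, -55.3, 15.8, 37.2 and -36.9 in controls and at -120, -98.7, -38.3, -45.2 and -66.1 in DMHF rats (-1.87 SD). In all 3 a low control rat, 2 or 5, lay inside the DMHF range.

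Single probe sets of Arid1b (-1.63 SD), Arid4a (-1.48 SD) and Smarcc2 (-1.46 SD) complete the 10. The control rats fell in a like order in most of them. Control rat 1 was the highest control in 7 of the 10 and lay above all DMHF rats in 9, control rat 2 was the lowest control in 5 and control rat 5 in 4, and at least 1 of these lay within the DMHF range in 9. All 10 differences stayed negative with each array left out in turn. The 10 had been picked as lower in the same arrays, so these signs were nearly fixed beforehand and give no support. Without control replicate 1, 6 of the 10 had an unadjusted p under 0.05 by limma, and this count has the same limit. After quantile normalization 5 of the 10 could be measured and were negative. That of Kmt2a was at -6.85 millionths in place of -47.8 and that of Chd2 at -25.0 in place of -73.6. Those of Ash1l were at -36.3 in place of -54.1 and at -94.3 in place of -243, while that of Smarcc2 grew to -52.6 from -13.8. The probe sets share the 10 rats and, for Ash1l and Chd4, a gene, so they are not independent of each other.

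**Figure D4:**
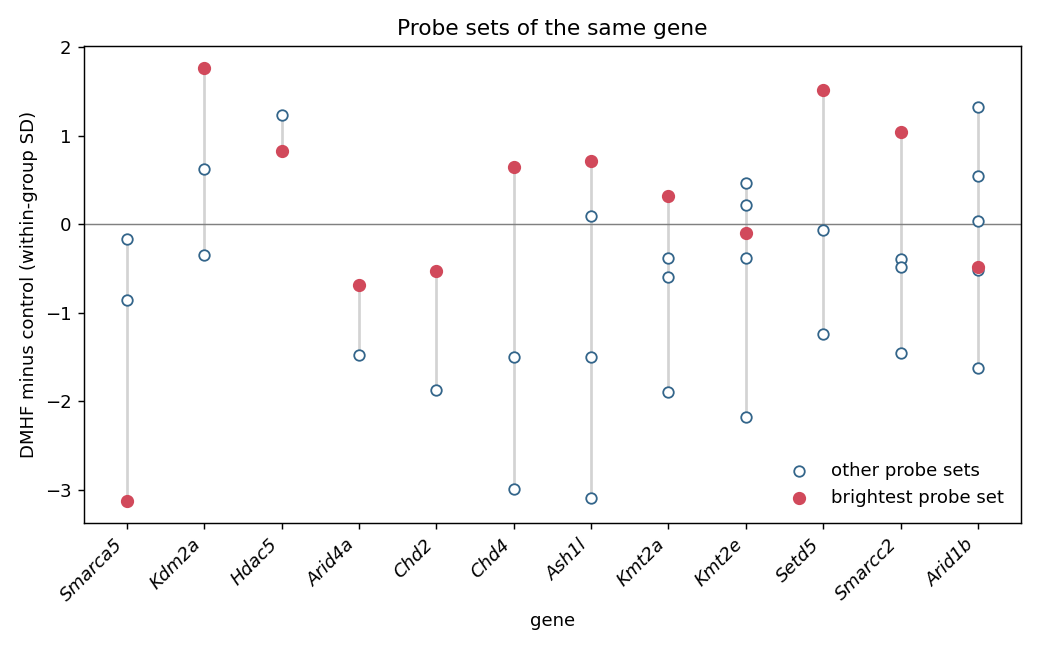
For 12 members with several probe sets the difference DMHF minus control in within-group SD (n = 5 and 5 rats) is drawn for the brightest probe set (red) and the others (open). The brightest probe sets of Ash1l (0.711) and Chd4 (0.648) lie above 0 while their lowest lie at -3.09 and -2.99.

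The share of lower probe sets was highest among those with the widest spread between rats. With the member probe sets in 4 classes of about equal size, 28 of the 36 with an SD above 5.66 millionths were lower in DMHF (77.8%, median -0.513 SD). Of all 6268 probe sets with so wide a spread 55.2% were lower (median -0.0818 SD), against 43.8% to 45.9% in the narrower classes. At an unadjusted p under 0.05 by limma, 7 of these 36 were lower (19.4%, against 3.77% of all probe sets with that spread). In the 3 narrower classes, from the narrowest up, 23 of 37, 13 of 36 and 19 of 36 member probe sets were lower. The classes were drawn after the values had been seen. Probe sets of Ash1l and Chd4, which had led to the grouping, are among the 7 lower ones of the widest class.

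The log2 ratio of the 3' to the 5' control probe sets of hexokinase, a measure of RNA integrity, was higher in DMHF by 13.4 millionths. It stood at -0.901, 1.41, 7.95, 3.53 and -12 in control rats 1 to 5 and at 19.9, 5.39, 4.96, 16.2 and 20.5 in DMHF rats 1 to 5, with 3 DMHF rats above all controls. The same ratio of beta-actin differed by -0.216 and that of Gapdh by 0.028 millionths, with overlapping groups. Markers of choroid plexus were higher in DMHF for 7 of 7 measured genes, of ependyma for 5 of 5 and of pituitary for 7 of 8, and 5 of 6 endothelial markers and 4 of 4 markers of oligodendrocyte precursors were lower, with 0 past the test in any list. Markers of blood and of meninges were lower for 4 of 5 each, and 47.0% of all genes were lower. Only 1 of the 8 pituitary and 1 of the 5 ependyma markers lay above the median probe set, beside 5 of the 7 of choroid plexus. The mean of the choroid plexus list ran from -1.08 to 1.02 SD in control rats and from -0.26 to 1.96 in DMHF rats, that of the ependyma list from -0.969 to 1.25 and from 0.395 to 1.77, and that of the pituitary list from -1.22 to 0.589 and from 0.189 to 1.59. Endothelial markers ran from -0.91 to 0.762 and from -1.23 to 0.0898 SD. Oligodendrocyte precursor markers ran from -0.632 to 1.05 and from -0.906 to 0.467 SD. The part of RNA integrity or of these tissues in the values of the chromatin genes was not tested.

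Further chromatin genes that the symbol rule does not take, listed by complex or role, leaned to lower values about as often as the members. Of 174 measured genes on these lists 95 were lower (54.6%, median -0.0699 SD), 0 passed the test, and at an unadjusted p under 0.05 by limma 7 were higher and 3 lower, where 2.98% and 1.83% of all genes were. The groups did not overlap for 4 higher and 1 lower of the 174, where 0.549% and 0.345% of all genes were so. With the arrays set to a common median, 0.141% of all genes had separate groups in place of 0.893%. Whether the groups of these further genes stay separate in that fit was not examined. Without control replicate 5 or DMHF replicate 2 the median difference of the 174 genes was 0.0372 or 0.0141 SD.

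The partner subunits of BAF and PBAF complexes were lower for 13 of 17 genes (median -0.355 SD), where 47.0% of all genes were. Among them were Actl6b, the neuron-specific actin-like subunit (-0.917 SD), and Bcl7a (-0.978 SD). The 10 of 13 Smarc genes that were lower include Smarca1, Smarca5, Smarcad1 and Smarcal1, which are not BAF subunits. The 3 higher ones, Smarca2, Smarcb1 and Smarcc2, are BAF subunits. Histone acetyltransferases were lower for 10 of 14 (median -0.275 SD), with Kat2b at -1.31 SD (its other probe set at 0.307) and Kat6b at 1.68 SD (its others at -0.129 and 0.605). Sirtuins were lower for 4 of 6, with Sirt3 at -1.18 and Sirt2 at -0.352 SD. Corepressor subunits of SIN3, CoREST and NCoR were lower for 4 of 15 (median 0.319 SD). In that list Rest, the repressor of neuronal genes outside neurons, was at 2.7 SD with separate groups, but its other probe set was at -2.03 SD. Tbl1x was at 1.67 SD, with its other probe sets at -0.773 and 0.588 SD.

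Bod1l1, a partner of Setd1 complexes, was the single lower gene with separate groups on these lists (-2.05 SD). Cxxc1, which brings those complexes to CpG islands, was higher with separate groups (2.09 SD), at an unadjusted p of 0.0578 by limma. The list of COMPASS and MLL partners was lower for 6 of 13. Other remodellers were lower for 11 of 17, with Ttf2 (3.01 SD) and Baz2a (2.9 SD), a subunit of the complex that silences ribosomal DNA, higher with separate groups. The mean of Ttf2, 6.65, was below the array median of 7.24, as was that of Rest, 6.36. Polycomb subunits were lower for 14 of 28 (Phf19 at 1.55 and Cbx2 at 1.23 SD), NuRD partners for 4 of 9 (Cdk2ap1 at -1.18 and Gatad2b at -0.896 SD), and other methyltransferases and demethylases for 10 of 26 (Nsd2 at -1.63 and Jmjd6 at 1.45 SD). The other probe set of Cdk2ap1 was at 0.962 SD, and the 4 others of Nsd2 ran from -2.53 to 1.05 SD. Genes of DNA methylation were lower for 8 of 12 (Dnmt1 at 1.45 and Mbd1 at -0.649 SD), and bromodomain and chromodomain readers for 11 of 17 (Cbx5 at -0.701 and Brpf1 at -0.635 SD).

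**Figure D5:**
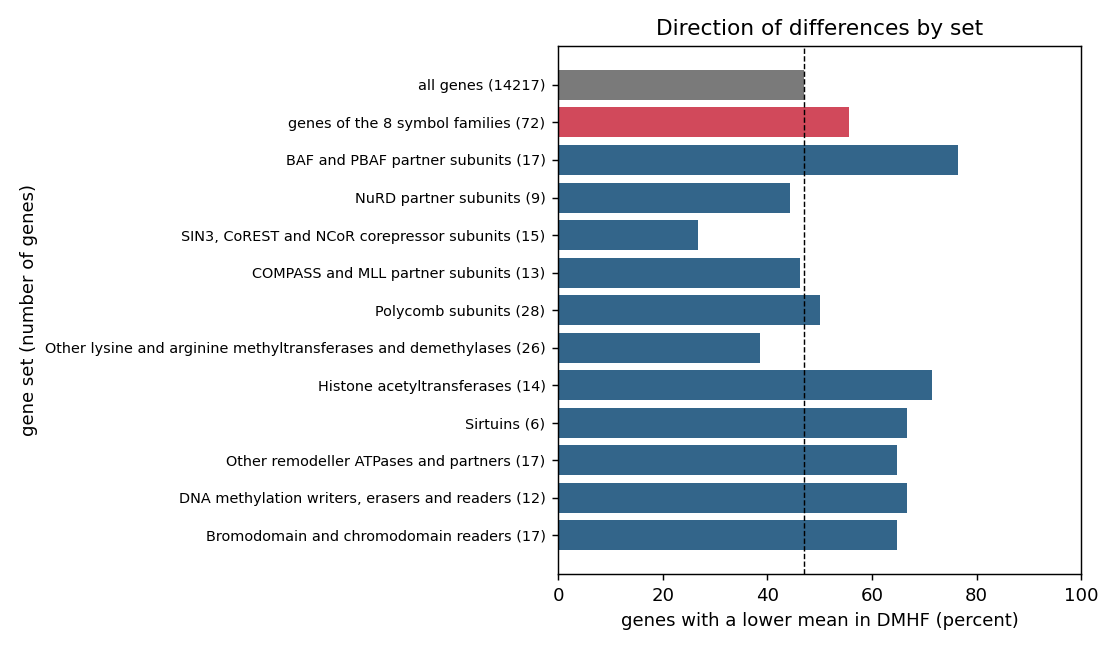
Bars give the percentage of genes with a lower mean in DMHF (n = 5 and 5 rats) for all genes, the 72 members and 11 lists of further chromatin genes, with gene numbers in parentheses and a dashed line at the 47.0% of all genes. BAF and PBAF partners reach 76.5% and the corepressor list 26.7%, with no gene past the test in any bar.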

How the data were processed

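Titles gave each rat's group and number. The values are the authors' log2 values in 1 deposited table of 31099 probe sets, running from 5.252 to 14.216. The log base was taken from that range. The submitters' processing notes name R 2.7.2 alone. The sources used here do not name the background, normalization or summary steps. The deposited digits resolve 0.001 to 0.01 millionths. The 57 control probe sets were left out, and 31042 were fitted by lmFit and eBayes of limma 3.58.1 under R 4.3.3 (prior degrees of freedom 0.841, two-sided, Benjamini-Hochberg adjustment over all probe sets, threshold 0.05). Every SE and adjusted p is from this fit. Over all probe sets 1700 had an unadjusted p under 0.05.

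Names of genes are those of GEO's platform table (20826 probe sets with 1 gene, 436 with several, 9780 unnamed here), and 71 of the 72 members were found by identifier in the NCBI table with the same symbol. The members, gene lists and rules were chosen with earlier results of these data known. In each family, values of every rat are given for up to 3 genes with the smallest p and for any gene with separate groups, and for the less bright probe sets picked afterwards. Also named were genes whose probe sets share a sign, the catalytic subunits of NuRD and BAF, Hdac4, Hdac5 and Hdac7, and 2 genes with the smallest p from each further list. Other genes named as family examples were chosen after their values were seen.

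The fit was also run on data simulated with the real spreads of DMHF against control (31042 probe sets, 50 changed at each size). It recovered 16% of shifts of 2 within-group SD, 62% of 4, 92% of 6 and 98% of 8, beside 10 false calls. In the measured data the highest difference of a gene was 7.0 within-group SD. The smallest adjusted p of all genes by limma was 0.698 there. Recovery of a single changed gene was not tested. No pair of arrays was identical. Alternatives were other scalings, weights, variance priors, filters and probe set choices, a replicate block, and each array left out. Promoter windows are from RefSeq, 1 per gene.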

Additional observations from a re-analysis of the deposited data

Results flagged for a closer look

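Of 44 groups of 5 rats screened over the 22 genes given with the value of every rat, 1 held a rat far from the others, where chance alone gives about 1 in 20. Control rat 3 stood at -8.42 millionths from the control mean for Kdm5c, while the other controls lay between 0.524 and 3.71.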

How the results depend on the processing

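With the replicate number as a block, 40 members were lower as before and 1 had an unadjusted p under 0.05 by limma in place of 3. Of all genes 6.6% had such a p with the block, in place of 4.8%. Same-numbered rats correlated between 0.029 and 0.273 in their deviations from the group means. Rats of different numbers were not set beside them, so these values cannot show whether the numbers pair the rats. The titles give the numbers as biological replicates only, and the main fit left them out. The block changed no adjusted call. Quantile normalization made most probe sets constant across arrays. It left 10076 to test, 13 of them past an adjusted p of 0.05 by limma, and 32 members, of which 18 were lower, 0 had separate groups and 1 had an unadjusted p under 0.05, with 35 of 77 further genes lower. Of all genes left, 42.7% were lower, 0.183% had separate groups and 5.64% had such a p. A common array median left 0 members with separate groups and 0 at an unadjusted p under 0.05, and 58.3% of members lower. Of all genes 0.141% then had separate groups, 1.36% had such a p and 50.5% were lower. The dimmest probe set per gene, and that with the largest SD, each gave 6 members at an unadjusted p under 0.05 (5 and 6 of them lower, and 5.55% and 5.85% of all genes either way), and the latter 0 with separate groups (0.95% of all genes). With single arrays left out, the members lower ranged from 34 to 48, their median from -0.254 to 0.0413 SD, those with separate groups from 1 to 2, those at an unadjusted p under 0.05 from 1 (without control replicate 1 or 4, or DMHF replicate 2 or 4) to 4, and probe sets past an adjusted p of 0.05 from 0 to 1 (without DMHF replicate 2). The further genes lower ranged from 84 to 101 and their median from -0.127 to 0.0372 SD. Leaving out DMHF replicate 1, DMHF replicate 5 or control replicate 5 gave 2 members with separate groups, where 2.04%, 2.1% and 1.62% of all genes had them. Over the fits with single arrays left out, 1.32% to 2.1% of all genes had separate groups. An unadjusted p under 0.05 by limma was found for 3.77% to 6.38% of all genes in those fits. Of the 22 differences given by rat, 5 of the 8 left after quantile normalization changed sign or went to 0, as did that of Kmt2a (-0.78) without control replicate 3. The cause was not tested.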

Other observations

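The spread among rats of a group was wider in DMHF than in control for 37 of the 72 members (51.4%, against 54.4% of all genes). Over the brightest probe sets of the members the within-group SD ran from 0.244 to 32.9 millionths with a median of 1.57, against a median of 3.42 for the 73 less bright ones.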
